A study of Mus musculus with 12 samples.

Results

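The transcripts described here belong to 8 liver genes of glycolysis and sugar entry, namely Gckr, Pklr, Khk, Aldoc, Pfkl, Pfkfb1, Slc2a2 and Gpd1. They are a list of gene names, 8 of the 24062 genes in the count tables, and the rule for membership sets no threshold on a measured value. Hepatocytes take up glucose and fructose through the transporter GLUT2, phosphorylate them, split the resulting sugar phosphates into trioses, and convert these to pyruvate or to the glycerol 3-phosphate of triglycerides. The liver uses its own isoforms at most of these steps, several of them rise on a carbohydrate-rich diet through the sugar-sensing transcription factor ChREBP, and the pathway runs against gluconeogenesis in the same cells.

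The study asked how inhibition of lanosterol synthase (Lss), an enzyme of cholesterol synthesis, changes hepatic gene expression and glucose regulation. Liver RNA was sequenced from 12 female C57BL/6J mice, an inbred strain without engineered alleles. The mice were bought at 6 weeks of age, acclimated for 2 weeks and moved from chow to a purified control diet 3 days before the start. The control group (6 mice, numbered 1 to 6) stayed on that diet, and the BIBB-515 group (6 mice, numbered 6 to 11) received the matched diet with the Lss inhibitor BIBB-515 at 55 mg/kg body weight for 10 days. These numbers come from the sample titles. Number 6 occurs in both groups, but the study randomized mice to 1 diet or the other, so it does not mark a shared animal. Each library is from 1 mouse, and no other tissue or dose was analysed here.

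Between 22764819 and 31058370 reads per library were counted on genes, and 12481 genes with at least 1 CPM (reads scaled to the TMM library size) in at least 2 libraries were tested, all 8 members among them. The 10 hepatocyte markers examined were abundant in every library. Their summed level was lower with BIBB-515, at 128397 to 144564 CPM against 169483 to 190382 CPM in control mice. Alb alone made up most of that sum, with a mean of 120094 CPM in control mice and 90923 CPM in BIBB-515 mice. Of the 10, Alb, Ttr, Tf and Fgb were below control at a false discovery rate (FDR) under 0.05 in edgeR's quasi-likelihood test. The other 6 did not pass. Among markers of other cells, 0 of 7 for bile duct, 0 of 9 for Kupffer cells and leukocytes, 0 of 7 for endothelium, 0 of 2 erythroid and 0 of 2 skeletal muscle markers passed that test. The last 2 lists held 8 and 7 genes, and the hemoglobin genes Hba-a1, Hba-a2, Hbb-bs and Hbb-bt had 0 reads in every library. Counting left out multi-mapping reads and reads shared between genes, so these 0 values do not show that blood RNA was absent. With 13.7% of all tested genes past the threshold, 0 of 2 cannot show whether blood or muscle content differed. At an unadjusted p under 0.05 only 1 bile duct marker passed among these lists, the same count as with DESeq2, and with limma-voom none did. Of 7 stellate cell markers 2 were lower, Lrat and Dcn. Of the 7 fat markers only Car3, which hepatocytes also express, was higher. Fabp4, the other one tested, had 6.82 to 11.2 CPM in control mice and 6.89 to 11.6 CPM in BIBB-515 mice (edgeR FDR 0.735). The other 5, among them the adipocyte genes Adipoq, Plin1 and Lep, were below 1 CPM in every library. The single pancreas marker tested, Cela1, was lower. Of 14 clock genes 0 passed (2 at an unadjusted p under 0.05, 0 with DESeq2 and 0 with limma-voom). Periportal markers, which are also hepatocyte genes, gave 3 higher (Cyp2f2, Hal and Hsd17b13) and 1 lower (Pck1) of 8. Pericentral markers gave 3 lower of 9. Because these are bulk samples, a marker level gives neither the number of cells of a type nor the RNA per cell. The part of the lower summed hepatocyte marker level in the results below was not tested.

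Of the 8 members, 2 passed an FDR of 0.05, against 13.7% of all tested genes. Aldoc, the brain-type aldolase gene, rose to 2.22 times its control level, and Pklr, the gene of liver pyruvate kinase, fell to 0.541 times its control level. The other 6, Gckr, Khk, Pfkl, Pfkfb1, Slc2a2 and Gpd1, did not pass the test. The median log2 fold change (BIBB-515 minus control) was -0.16 over the 8 members and -0.01 over all tested genes. Aldoc was the 1 member whose groups did not overlap, a property of 7.07% of all tested genes.

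**Figure D1:**
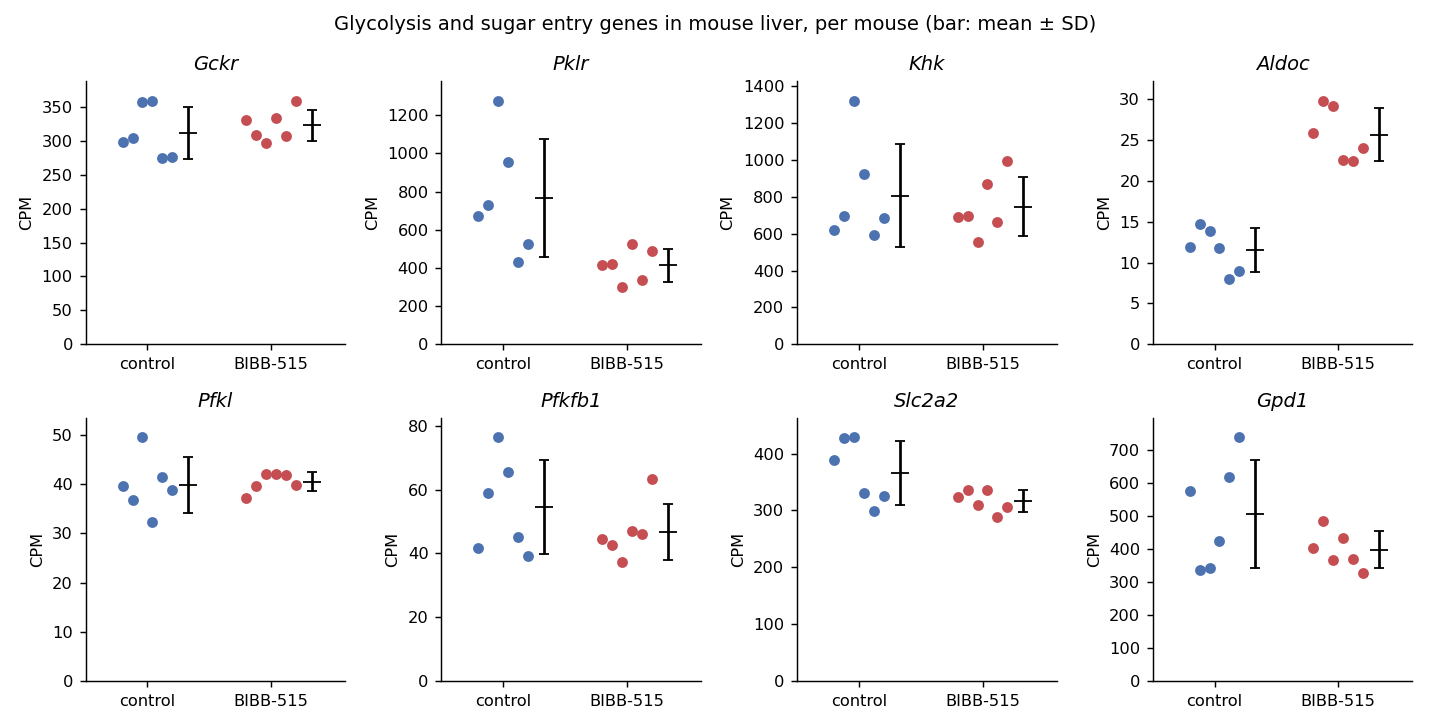
Level of each member in every mouse, in CPM on axes that start at 0, with control mice in blue, BIBB-515 mice in red and the mean ± SD of 6 mice as a black bar. The groups are apart for Aldoc (7.94 to 14.8 CPM against 22.4 to 29.8 CPM) and overlap for every other member. Pklr has 430 to 1278 CPM in control mice, the highest in mouse 3, and 298 to 527 CPM with BIBB-515.

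Sequence upstream of the start sites is shown for the 2 members that passed the test. RefSeq promoter windows on GRCm38 (the build mm10) were found for 7 of the 8 members, 12 windows in all, with none for Gpd1. The 250 bases before each start were searched on both strands for 3 motifs: the E-box CACGTG, the sterol regulatory element-like TCACNCCAC, and the ChoRE consensus, which is a pair of E-box-like boxes 5 bases apart and is the site type that ChREBP binds with its partner Mlx. Among all 32851 windows searched in the same way, 6.02% held the E-box, 1.05% the sterol regulatory element-like motif and 0.0974% the ChoRE consensus. The members held 1 match of each. The ChoRE consensus lies before the liver-type start of Pklr, whose stretch from 250 to 52 bases before the start, chr3:89136373-89136571 on the plus strand, overlaps no annotated exon. The sterol regulatory element-like match lies 80 bases before the more distal start of Aldoc and is shown with its flanks at chr11:78322983-78323012 on the plus strand, within a first exon that GENCODE lists for 1 Aldoc transcript. Capitals mark the motif in each:
Pklr, ChoRE: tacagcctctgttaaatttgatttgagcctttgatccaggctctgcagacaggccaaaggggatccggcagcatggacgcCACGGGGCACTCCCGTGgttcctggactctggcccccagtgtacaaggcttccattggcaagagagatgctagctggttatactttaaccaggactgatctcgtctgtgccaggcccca
Aldoc, sterol regulatory element-like: ggcagaggaaTCACTCCACctcactactcc
The E-box match is 71 bases before the start of Khk, at chr5:30921488-30921493. The first exon that holds the Aldoc match, at 78322968 to 78323222, has no entry in the count tables. Use of the more distal Aldoc start was therefore not measured here. A match describes these letters only, and binding of a factor was not measured.

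Sugar entry was examined first through Slc2a2, which encodes the low-affinity transporter GLUT2 of the hepatocyte membrane (mm10, chromosome 3, 28697903 to 28728360, plus strand). Control mice had a lowest, median and highest Slc2a2 level of 298, 359 and 429 CPM, and BIBB-515 mice of 288, 317 and 336 CPM. The control mean was 366 ± 56.1 CPM (SD, n = 6) and the BIBB-515 mean 316 ± 19.0 CPM (SD, n = 6). Each of the 6 treated mice was under the control mean, but only 1 was under the lowest control mouse. The log2 fold change of -0.21 (standard error 0.09, 95% interval -0.41 to -0.01) had an edgeR FDR of 0.148, and p was 0.0844 in an exact permutation test (two-sided).

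Khk, the ketohexokinase gene for the first step of fructose use (chromosome 5, 30921895 to 30931246, plus strand), had a lowest, median and highest level of 595, 690.2 and 1323 CPM in control mice and 552, 695 and 996 CPM in BIBB-515 mice. The medians nearly coincided, and control mouse 3 was far above the other 5 control mice, which reached at most 922 CPM. The log2 fold change was -0.11 (standard error 0.19, 95% interval -0.53 to 0.30, edgeR FDR 0.741), and without control mouse 3 its sign turned, to 0.09 (FDR 0.725). Khk has a pair of mutually exclusive alternative exons of 135 bases each, and the count tables list only that at 30927022 to 30927156, which held 2210 to 5475 reads per control mouse and 2792 to 3968 per BIBB-515 mouse. The other GENCODE exon, at 30926688 to 30926822, has no entry there, so the share of the isoforms was not analysed here.

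Gckr encodes a regulatory protein that controls glucose phosphorylation in hepatocytes by sequestering the enzyme in the nucleus (chromosome 5, 31297581 to 31327302, plus strand). Its lowest, median and highest levels were 275, 301 and 359.6 CPM in control mice and 297, 320.1 and 359 CPM in BIBB-515 mice. Gckr had among the narrowest spreads of the members, with a coefficient of variation of 12.2% in control mice and 7.09% in BIBB-515 mice. The log2 fold change was 0.05 (standard error 0.08, edgeR FDR 0.728), and its 95% interval, -0.13 to 0.23, holds changes of either sign.

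The commitment step of glycolysis is represented by Pfkl, the liver phosphofructokinase subunit, and by Pfkfb1, the liver form of the bifunctional enzyme that makes and degrades its activator fructose 2,6-bisphosphate. Pfkl (chromosome 10, 77986949 to 78009796, minus strand) had 32.3, 39.2 and 49.5 CPM as lowest, median and highest values in control mice and 37.2, 40.8 and 42.1 CPM in BIBB-515 mice. The BIBB-515 values fell inside the control range, with a log2 fold change of 0.02 (standard error 0.08, 95% interval -0.16 to 0.20, edgeR FDR 0.878), and without control mouse 4 the value was -0.02 (FDR 0.897).

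Pfkfb1 (chromosome X, 150589921 to 150643878, plus strand) had 39.3, 52.0 and 76.4 CPM in control mice and 37.4, 45.3 and 63.3 CPM in BIBB-515 mice, again as lowest, median and highest. The control mean was above 5 of the BIBB-515 mice and below mouse 11, and the log2 fold change was -0.22 (standard error 0.16, 95% interval -0.57 to 0.13, edgeR FDR 0.396). The first exon in the count tables held 1 to 11 reads per control mouse and 7 to 20 per BIBB-515 mouse, against 73 to 187 and 94 to 143 on the second. The first exon of another GENCODE transcript, at 150594478 to 150594774, has no entry in the tables.

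Aldolase cleaves fructose 1,6-bisphosphate into trioses. Aldoc (chromosome 11, 78324198 to 78326760, plus strand) had 11.9, 14.8, 13.8, 11.8, 7.94 and 8.96 CPM in control mice 1 to 6. It had 25.9, 29.8, 29.2, 22.6, 22.4 and 24.0 CPM in BIBB-515 mice 6 to 11. Every BIBB-515 mouse exceeded every control mouse.

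The mean Aldoc level was 11.5 ± 2.66 CPM (SD, n = 6) in control mice and 25.6 ± 3.24 CPM (SD, n = 6) in BIBB-515 mice. On the log2 scale this is a difference of 1.15 (standard error 0.14, 95% interval 0.86 to 1.44) with an edgeR FDR of 8.42e-05, and the exact permutation test gave p = 0.00216, the smallest that 6 mice against 6 allow. The value rests on 170 to 408 reads per control library and 558 to 961 per BIBB-515 library. It was not carried by 1 part of the transcript: all 8 listed exons had higher mean read density with BIBB-515, by 0.83 to 1.70 on the log2 scale, and none overlapped between the groups.

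Aldoa, the muscle-type aldolase gene, rose by 0.38 on the log2 scale (standard error 0.12, edgeR FDR 0.0402), from 144 ± 26.6 to 188 ± 17.7 CPM (SD, n = 6 each), a call that 7 of the 12 fits with 1 mouse left out did not keep. Per kilobase of exon, the Aldoa level in control mice was 79.0 ± 14.6 CPM (SD, n = 6) and that of Aldoc 6.78 ± 1.56 CPM (SD, n = 6). In BIBB-515 mice the levels per kilobase were 103 ± 9.73 and 15.1 ± 1.90 CPM (SD, n = 6 each), so Aldoa stayed the more abundant of the pair.

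Pyruvate kinase closes glycolysis. Pklr (chromosome 3, 89136142 to 89146594, plus strand), the gene with the ChoRE match printed above, encodes its liver and red cell forms from alternative first exons. Control mice 1 to 6 had 671, 732, 1278, 954, 430.2 and 524 CPM. BIBB-515 mice 6 to 11 had 417, 419.6, 298, 527, 335 and 487 CPM. Control mice 5 and 6 lay within the range of the BIBB-515 group, and 4 of the 6 BIBB-515 mice lay below every control mouse.

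The mean Pklr level was 765 ± 309 CPM (SD, n = 6) with the control diet and 414 ± 86.9 CPM (SD, n = 6) with BIBB-515. The log2 fold change was -0.89 (standard error 0.23, 95% interval -1.37 to -0.40, edgeR FDR 0.0194), and the exact permutation test gave p = 0.0108. All 6 BIBB-515 mice were below the control mean. Leaving out 1 mouse at a time moved the log2 fold change between -1.0 and -0.67 and the FDR between 0.00719 and 0.0479, with the smallest change without control mouse 3, the highest of the group.

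Reads on the Pklr first exons came from the liver type. The upstream exon at 89136142 to 89136282, the red cell type, held 0 reads in 11 of the 12 libraries and 1 read in control mouse 2, while the 15-base liver exon at 89136623 to 89136637 held 21 to 105 reads in control mice and 17 to 37 in BIBB-515 mice. All 11 exons with enough reads had lower mean density with BIBB-515. The 9 inner exons, listed as 3 to 11, lay between -0.90 and -0.76 on the log2 scale.

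The last Pklr exon shares 521 bases with exons of Hcn3, a gene on the opposite strand, in GENCODE. Counting used no strand, so reads of the pair cannot be told apart there. Counts on the separately listed exons of Hcn3 also fell, by 1.39 on the log2 scale (standard error 0.29, edgeR FDR 0.00571), from 703 to 2512 reads per control library to 413 to 818 with BIBB-515. The inner exons of Pklr do not overlap Hcn3.

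**Figure D2:**
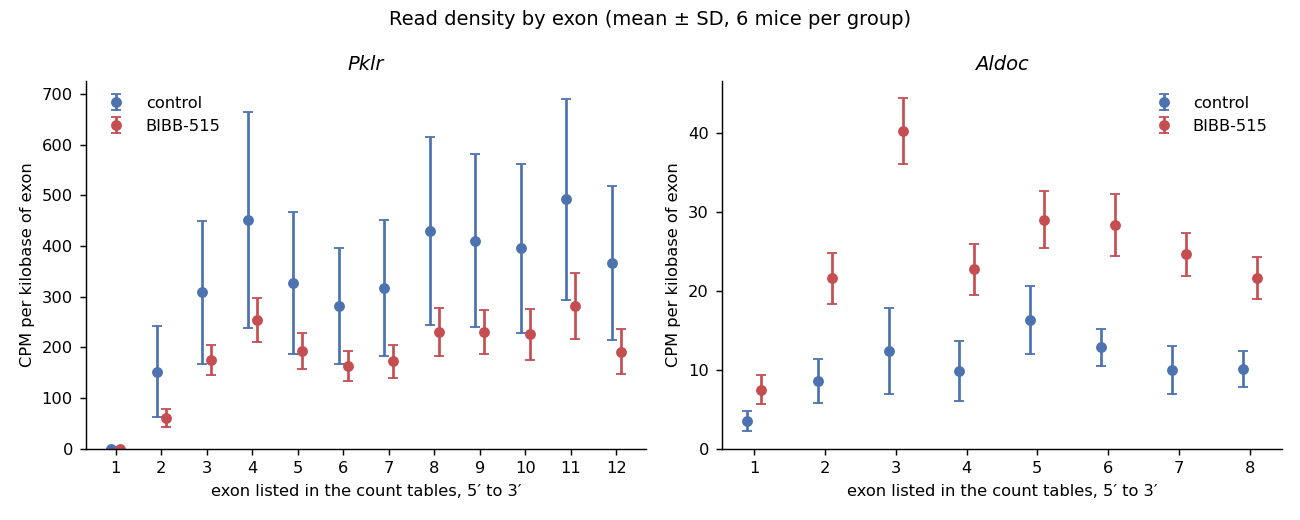
Read density on each exon listed for Pklr and Aldoc, in CPM per kilobase of exon from the 5′ to the 3′ end, as mean ± SD of 6 control mice (blue) and 6 BIBB-515 mice (red). All 8 Aldoc exons are higher with BIBB-515, all Pklr exons from the second on are lower, and the first Pklr exon, the red cell type, is at 0.

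Pkm, the pyruvate kinase gene of most other tissues, differed by 0.10 on the log2 scale (standard error 0.10, edgeR FDR 0.521), with 18.7 ± 3.08 and 20.1 ± 1.199 CPM (SD, n = 6 each). Pklr made up 95.6% to 98.3% of pyruvate kinase transcripts per kilobase in control mice and 93.0% to 96.0% in BIBB-515 mice, so the liver gene dominated in both groups and the ranges of its share overlapped.

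Gpd1, the cytosolic glycerol 3-phosphate dehydrogenase gene that links glycolysis to triglyceride synthesis (chromosome 15, 99717593 to 99725007, plus strand), had a lowest, median and highest level of 336, 500.3 and 739 CPM in control mice and 326, 387 and 484 CPM in BIBB-515 mice. All 6 BIBB-515 mice were below the control mean, yet 1 was below the lowest control mouse. The log2 fold change was -0.35 (standard error 0.18, 95% interval -0.73 to 0.04, edgeR FDR 0.212). An antisense gene, Gm16537, shares 226 and 158 bases with the sixth and the last Gpd1 exon in GENCODE, and reads of the pair cannot be told apart without strand. Its mitochondrial counterpart Gpd2 fell by 0.51 on the log2 scale (standard error 0.12, edgeR FDR 0.0116), from 89.2 ± 15.8 to 62.8 ± 8.72 CPM (SD, n = 6 each). Gpd1l had a log2 fold change of 0.14 (FDR 0.481).

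Between genes, levels were compared per kilobase of exon. Khk was highest in control mice, at a mean level of 722 ± 249 CPM per kilobase (SD, n = 6), and all 6 control mice had more Khk than any had of Pklr, the next gene at 273 ± 110.4. Pklr, Gpd1 (182 ± 58.7), Gckr (155 ± 18.9) and Slc2a2 (143 ± 21.8) overlapped with their neighbors in this order, and Pklr was above Gpd1 in 4 of the 6 control mice. Slc2a2 stood clear of Pfkfb1 (31.3 ± 8.53), which stood clear of Pfkl (10.7 ± 1.54). Aldoc was lowest at 6.78 ± 1.56, its highest control value of 8.68 just under the lowest Pfkl value of 8.69. In BIBB-515 mice Gckr (160.4 ± 11.4), Pklr (148 ± 31.0) and Gpd1 (143 ± 19.9) followed Khk with overlapping ranges, that of Pklr, 106 to 188, enclosing that of Gckr, 148 to 178. Aldoc at 15.1 ± 1.90 stood above Pfkl at 10.9 ± 0.52, without overlap between the 2 genes.

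The members of 4 further families were each the most abundant form among those compared. Pfkl held 52.3% to 60.3% of phosphofructokinase transcripts per kilobase over all 12 mice, with Pfkm next at 33.7% to 43.0%. Pfkfb1 held 69.4% to 79.1% of the 4 bifunctional enzyme transcripts, Gpd1 82.1% to 91.1% of its family and Slc2a2 79.9% to 84.0% of the 7 facilitative transporters compared. Log2 fold changes of the isozymes Pfkm (0.15, FDR 0.131), Pfkp (-0.13, FDR 0.596), Pfkfb2 (-0.18, FDR 0.607), Pfkfb3 (-0.24, FDR 0.428) and Slc2a1 (0.16, FDR 0.519) did not pass the edgeR test. Tkfc, which phosphorylates the glyceraldehyde from fructose, was likewise not called, with a log2 fold change of -0.17 (FDR 0.586).

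**Figure D3:**
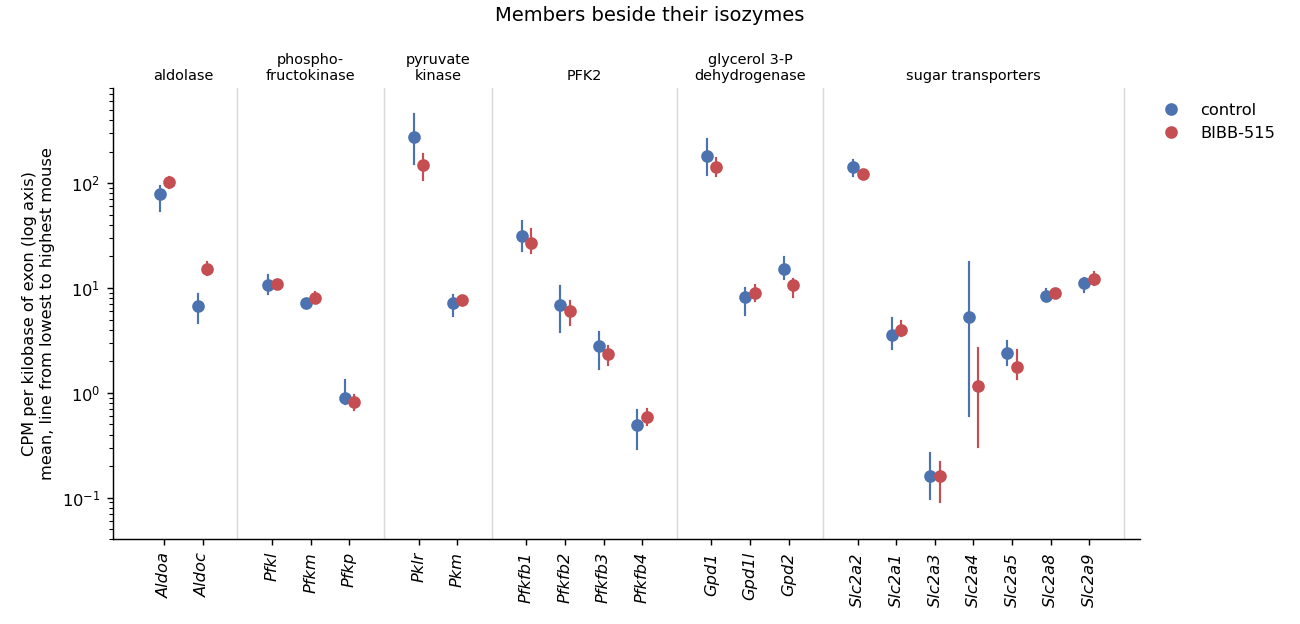
Levels of members and isozymes in CPM per kilobase of exon on a log axis, grouped by enzyme family, with the mean of 6 control mice (blue) and 6 BIBB-515 mice (red) as points and lines from the lowest to the highest mouse. Slc2a2, at 143 in control mice, is far above the other transporters, and of the families shown Aldoc is the member whose lines do not overlap.

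The pathway around the members was followed in 8 lists with 112 genes, of which 99 were tested and 15 passed an edgeR FDR of 0.05, 7 higher and 8 lower. This is 15.2% of the tested list genes beside 13.7% of all tested genes, and the median log2 fold change was -0.04 beside -0.01.

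Among 22 tested enzymes of glycolysis outside the members, 2 were higher and 1 was lower. Pgk1, which makes the first ATP of the pathway, rose by 0.35 on the log2 scale (standard error 0.06, edgeR FDR 0.00294), from 127 ± 9.24 to 161 ± 10.3 CPM (SD, n = 6 each), without overlap between the groups. Aldoa is given above. Ldha, which converts pyruvate to lactate, fell by 0.63 on the log2 scale (standard error 0.18, edgeR FDR 0.0317), from 807 ± 266 to 522 ± 32.6 CPM (SD, n = 6 each), a call lost with limma-voom (FDR 0.0533) and in 8 of the 12 fits without 1 mouse. The median of this list was 0.02.

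Fructose and polyol handling had 1 of 7 tested genes higher, Sord, the sorbitol dehydrogenase gene, by 0.32 on the log2 scale (standard error 0.08, edgeR FDR 0.0202), and the median was -0.15. Without BIBB-515 mouse 8 the FDR of Sord was 0.0503. Of 9 tested sugar transporters besides Slc2a2, 1 was lower, Slc37a3, a member of the sugar phosphate exchanger family, at -0.28 on the log2 scale (standard error 0.09, edgeR FDR 0.0495) at the edge of the threshold, a call lost in 14 of the 20 alternatives, and the median of the list was 0.10. Of 8 tested genes of glycerol and glycerol 3-phosphate, 2 were lower. These were Gpd2, given above, and Gyk, the glycerol kinase gene, which fell by 0.61 on the log2 scale (standard error 0.15, edgeR FDR 0.0158), from 144 ± 36.1 to 94.2 ± 10.4 CPM (SD, n = 6 each). The median of that list was -0.05.

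Of 15 ChREBP and glucose sensing genes, 0 passed in the edgeR test. At an unadjusted p under 0.05 there were 2, DESeq2 called 1 and limma-voom 0, and the median log2 fold change was -0.16. Mlxipl, which encodes ChREBP, had 451 ± 118 CPM in control mice and 383 ± 21.9 CPM in BIBB-515 mice (SD, n = 6 each), a log2 difference of -0.24 (standard error 0.14, FDR 0.271). For Txnip, a glucose-responsive ChREBP target, the difference was -0.16 (standard error 0.25, FDR 0.706). Klf10, a repressor that is itself sugar-responsive, had the lowest p of the list, with a log2 fold change of -1.03 (standard error 0.34) at an FDR of 0.0550. It was the gene called by DESeq2, at an FDR of 0.0480.

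Of 17 glycogen genes, 2 were higher and 1 was lower. Ppp1r3b, which brings protein phosphatase 1 to glycogen in liver, fell by 0.64 on the log2 scale (standard error 0.16, edgeR FDR 0.0170), from 290.3 ± 37.5 to 187 ± 51.8 CPM (SD, n = 6 each). Gyg, the glycogenin primer, rose by 0.31 (FDR 0.0349), and Gaa, the lysosomal glucosidase, rose by 0.27 (FDR 0.0373), calls lost in 9 and 6 of the 12 fits without 1 mouse. The median was 0.03. Among 18 tested genes of pyruvate fate, 1 was higher, the alanine transaminase gene Gpt, by 0.50 on the log2 scale (standard error 0.14, edgeR FDR 0.0281), and the median was -0.02. The call of Gpt was lost without control mouse 4 or 6 or BIBB-515 mouse 8 or 11, at an FDR of up to 0.0641.

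The gluconeogenesis list, the opposing pathway, had 1 gene higher and 3 lower of 9, with a median of -0.28. Fbp1, the fructose bisphosphatase gene, fell by 0.38 on the log2 scale (standard error 0.08, edgeR FDR 0.00464), from 1275 ± 93.9 to 979.6 ± 75.1 CPM (SD, n = 6 each), without overlap. Pck1, the cytosolic phosphoenolpyruvate carboxykinase gene, fell by 0.56 (standard error 0.14, edgeR FDR 0.0188), and its mitochondrial counterpart Pck2 by 0.38 (FDR 0.00733). The higher gene was G6pc3, a broadly expressed phosphatase, at 0.28 (FDR 0.0347, lost in 8 of the 12 fits without 1 mouse), whereas liver G6pc was at -0.51 on the log2 scale (standard error 0.26, FDR 0.194).

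**Figure D4:**
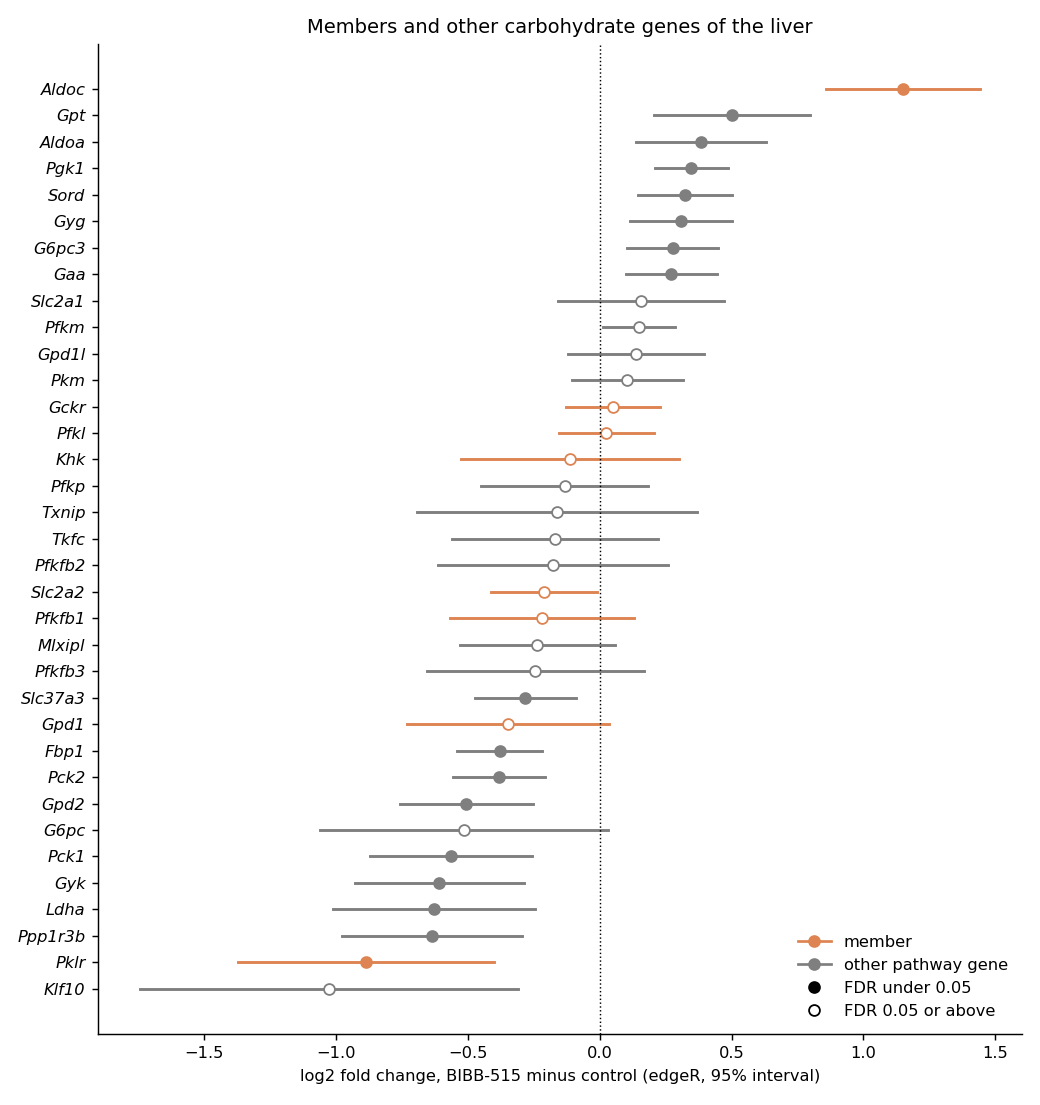
Log2 fold change (BIBB-515 minus control) with its 95% interval for the members (orange) and the other carbohydrate genes named in the text (gray), with filled points for an edgeR FDR under 0.05. Aldoc is the highest at 1.15, Pklr is at -0.89, and the intervals of Gckr, Khk, Pfkl, Pfkfb1 and Gpd1 include 0.

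Individual mice deviated from their diet's mean in several members at once. Control mouse 3 had the highest control value of 5 of the 8 members, Pklr, Khk, Pfkl, Pfkfb1 and Slc2a2, and control mouse 5 the lowest control value of 5. The log2 CPM deviations from the group means, over all 12 mice, are given as a description, since the points share library depth and RNA sample. Those of Pklr and Gckr had a Pearson r of 0.92 (Spearman 0.94, Pearson 0.88 without the 2 mice farthest from the median), those of Pklr and Khk one of 0.90 (Spearman 0.92, Pearson 0.83 without 2 mice), and those of Khk and Pfkfb1 one of 0.88 (Spearman 0.84, Pearson 0.73 without 2 mice). Within the diets, taken over 6 mice each, the 6 pairs among Gckr, Pklr, Khk and Pfkfb1 had a Pearson r between 0.66 and 0.95. Gpd1 ran opposite to Pfkfb1, with a Pearson r of -0.80 (Spearman -0.80), reaching -0.90 in control mice and -0.50 in BIBB-515 mice. Aldoc and Pklr, the 2 members that passed the test, had a Pearson r of 0.80 in control mice and -0.40 in BIBB-515 mice. Pfkl had a Pearson r between -0.09 and 0.27 with each of the other members, and without 2 mice between -0.54 and 0.30.

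**Figure D5:**
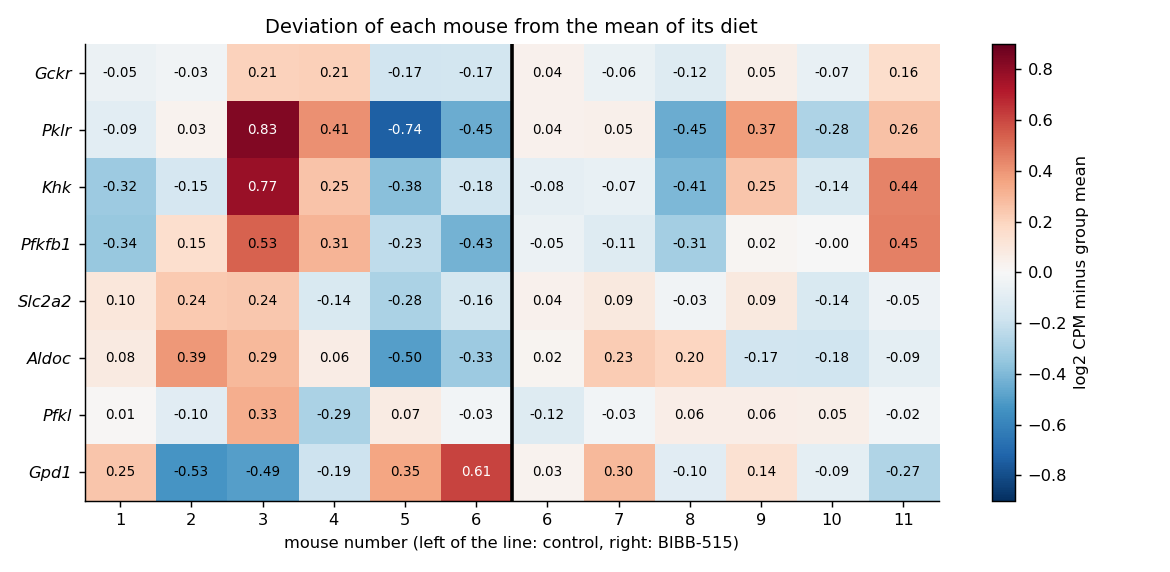
Deviation of log2 CPM from the mean of the diet group for each member (rows) and mouse (columns, control left and BIBB-515 right of the line), with red for higher and blue for lower. Control mouse 3 is high in Pklr (0.83), Khk (0.77) and Pfkfb1 (0.53) and low in Gpd1 (-0.49), and control mouse 5 is low in Pklr (-0.74).

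Among all tested genes outside the members, the 5 whose deviations were most like those of Pklr included Pdhb (Pearson r 0.98, Spearman 0.96), Ttc25 (0.97, 0.99), Fasn (0.97, 0.99) and Elovl6 (0.97, 0.99), over 12 mice. Pdhb encodes a subunit of pyruvate dehydrogenase, and Fasn and Elovl6 encode enzymes of fatty acid synthesis. Of these 4, Ttc25 passed the edgeR test (log2 fold change -1.84, FDR 0.0316). Fasn (-0.70, FDR 0.292), Elovl6 (-0.72, FDR 0.326) and Pdhb (-0.22, FDR 0.311) were lower without passing it. The 5 most like Gckr included Dazap1 (Pearson r 0.96, Spearman 0.92), Pdhb (0.95, 0.97), Haus7 (0.95, 0.88) and Prdx3 (0.95, 0.90), none of which passed the test, with FDR values from 0.141 to 0.872.

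Read coverage along the transcript differed between libraries and is given beside these values. The log2 ratio of read density on the last exon to that on the second exon with reads was 1.01 for Pklr in control mouse 4 and at most 0.46 in the other 11 libraries. Control mouse 4 was also the highest control in that ratio for Khk, Slc2a2 and Gpd1, and control mouse 5 for the other 4 members. The mean ratio was lower with BIBB-515 in 7 of the 8 members, with overlapping ranges in all 8. It was 0.28 ± 0.24 (SD, n = 6) in control mice and 0.01 ± 0.12 (SD, n = 6) in BIBB-515 mice for Aldoc, -0.72 ± 0.33 and -1.17 ± 0.31 for Pfkl, and 0.26 ± 0.40 and 0.12 ± 0.18 for Pklr. The part of this coverage difference in the fold changes was not tested. In Pklr and Gpd1 the last exon, and thus the ratio, can also hold reads of Hcn3 and Gm16537. Without control mouse 4 the log2 fold change of Pklr was -0.80 (edgeR FDR 0.0433), and that of Aldoc stayed past the threshold.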

How the data were processed

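The authors deposited raw, whole-number read counts per gene for each mouse, with matching counts per exon and a second gene count from primary alignments. The submitters' processing notes name STAR 2.5.3a, Subread 1.6.3 with featureCounts, and mm10; per the file headers, gene counts summed exons of a UCSC annotation, unstranded, and left out multi-mapping reads and reads shared between genes. A gene with close copies or overlapping neighbors can thus lose reads. Each exon count takes every read that touches the exon. Tables per transcript were not used here. The study's methods give a 5 h fast before blood collection and do not tie it to liver collection. Library preparation and time of day are not given in the sources used here.

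Groups came from sample titles. After a filter of 1 CPM in 10% of the libraries (2 of 12), counts were fitted in edgeR 4.0.16 (R 4.3.3) with TMM normalization and a single diet term, its quasi-likelihood test was applied, and the Benjamini-Hochberg FDR was taken over the 12481 genes tested; the steps were tested on simulated counts. The standard error was taken as the absolute log2 fold change divided by the square root of the F statistic of that test. Intervals use it with the degrees of freedom of that fit. Single genes were also compared on log2 CPM with a two-sided exact permutation test. Likeness used log2 of CPM plus 0.1. Depth was 22764819 to 31058370 reads per library, with a common biological coefficient of variation of 0.143. Every pair of libraries of a diet differed by more than counting noise (chi-square at least 12.7 per degree of freedom). The study's methods say that mice shared cages, and the inhibitor was given in the diet, but the labels do not say which mice shared a cage. The p-values thus measure the spread between these mice and not that between cages.

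Members and lists were chosen with earlier results of these data known. Genes named are the members, their isozymes, Mlxipl, Txnip, Pck1, G6pc, at most 4 genes per pathway list past the FDR (or the lowest p where none passed), and the 5 genes most like Gckr and Pklr. A gene that falls under this rule is not reported here but stays in every count. Marker genes, Hcn3 and Gm16537 were named after their values or positions were seen. Alternatives were DESeq2 1.42.0, DESeq2 size factors, upper-quartile scaling, limma-voom (limma 3.58.1), other filters, primary alignments, 1 surrogate variable (sva 3.50.0) and each mouse left out. Promoter windows are from RefSeq and exons from GENCODE, both on GRCm38.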

Additional observations from a re-analysis of the deposited data

Results flagged for a closer look

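Among 74 groups of 6 values examined (36 named genes and the library totals, in each diet), 8 had a highest mouse whose gap to the next, divided by the range of the group, exceeded the critical value of Dixon's test at 95%. Chance gives about 1 in 20, or 3.7. The members gave 1 of the 8: BIBB-515 mouse 11 had 63.3 CPM of Pfkfb1 against at most 46.9 CPM in the other BIBB-515 mice (gap over range 0.633).

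The same mouse stood apart in Pgk1 (181 against 160.6 CPM, 0.729) and in Gpt (464 against 399 CPM, 0.637). Control mouse 3 stood apart in Pgk1 (145 against 126 CPM, 0.735) and in Pfkp (5.56 against 3.55 CPM, 0.886). The others were BIBB-515 mouse 7 in Ldha (585 against 524 CPM, 0.695), control mouse 4 in Gyg (9.57 against 8.12 CPM, 0.668) and BIBB-515 mouse 9 in Pfkm (28.1 against 24.5 CPM, 0.762). No low mouse met the criterion in these groups.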

How the results depend on the processing

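The count of members past an FDR of 0.05 was 2 under all 20 alternatives, and 158 of the 160 member values kept their direction and their side of the threshold. The exceptions are members that were not called: Khk turned to 0.093 without control mouse 3, with a range of -0.21 to 0.093 over the 12 fits that leave out 1 mouse, and Pfkl to -0.019 without control mouse 4 (range -0.019 to 0.11). Genes called in all ranged from 1199 to 2407. The 15 called pathway genes became 24 with DESeq2 and 26 with 1 surrogate variable, and 8 to 19 with 1 mouse left out, the fewest without BIBB-515 mouse 8 and 9 each without mouse 10 or 11. The cause was not tested. Of 560 values of the 28 other named genes, 494 kept direction and side, 58 lost the threshold (14 of them for Slc37a3, 9 for Ldha, 9 for Gyg, 8 for G6pc3, 7 for Aldoa), 6 gained it (5 of them for Klf10), and 2 uncalled genes turned sign: Pfkp to 0.017 without control mouse 3 (range -0.18 to 0.017) and Txnip to 0.027 without control mouse 2 (range -0.31 to 0.027). No paired analysis was run, because the mice were randomized to separate diets and their sample numbers do not pair them. Isoform shares of Khk and Pfkfb1 were not run because 1 alternative exon of each has no entry in the count tables used here, and that of Pklr was not tested because a library held under 20 reads on the alternative exons. At this depth single Aldoc exons held as few as 7 reads in a library.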
